A study of Homo sapiens with 4 samples.

Results

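The minichromosome maintenance (MCM) genes MCM2 to MCM10 were examined in OVCAR3, an established line of ovarian carcinoma cells of the high-grade serous type. They were chosen by gene name: 9 genes of the 60605 annotated in the files, and each was among the 22185 genes that were tested. RNA was sequenced from 2 libraries of etoposide treated cells (1.7 µM, 24 h) and 2 libraries of DMSO treated (control) cells, labelled as biological replicates. Cells of both groups had first been arrested with 100 ng/mL nocodazole, which blocks mitosis, for 16 h and released into fresh medium for 3 h, so that both groups had been released from the same arrest. Etoposide traps topoisomerase II on DNA and leaves strand breaks. All 4 libraries came from a single cell line, and the p-values measure only the spread between these libraries.

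MCM2, MCM3, MCM4, MCM5, MCM6 and MCM7 are the subunits of the ring-shaped replicative helicase. In G1 the origin recognition complex, CDC6 and CDT1 load it onto DNA in an inactive form, and in S phase CDC45 and the GINS proteins join it to make the active CMG helicase, which unwinds DNA ahead of the fork. MCM10 is not part of the ring but is needed for the loaded helicase to start unwinding. MCM8 and MCM9 resemble the ring subunits, bind each other and act in homologous recombination rather than in origin firing. Transcription of the ring subunits is known to depend on E2F factors, which the retinoblastoma family and the DREAM complex hold in check.

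Levels are given as FPKM, sequenced fragments for each kilobase of a transcript, adjusted for the depth of the library and summed over the transcripts of a gene. Differences are on the scale log2(FPKM + 0.1), etoposide minus DMSO, with the standard error (SE) of limma's moderated test, and p-values were adjusted by the Benjamini-Hochberg method over all genes tested. The implied depth was 47700000 and 58500000 read pairs in the etoposide libraries and 64500000 and 66500000 read pairs in the DMSO libraries. A member rested on 589 to 12902 estimated read pairs in a library. DMSO replicate 1 differed from DMSO replicate 2 with transcript length and GC content: across genes, the Spearman correlation of their log2 difference was −0.317 with length and 0.340 with GC content, against −0.0173 and 0.0164 between the etoposide replicates. The difference of etoposide minus DMSO across genes had Spearman correlations of 0.194 with length and −0.289 with GC content. The gene-level difference of each member is therefore also given after a loess correction of every library for length and GC content, called corrected below, while transcripts, exons and ratios are uncorrected unless stated. After correction the Spearman correlations of etoposide minus DMSO were 0.0245 with length and −0.0141 with GC content.

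MCM10 (ENSG00000065328, chr10:13161558-13211110, plus strand), the activator, differed most among the members. Positions here and below are those of the files, on GRCh38. It stood at 4.95 and 5.12 FPKM in etoposide treated cells, against 3.33 and 3.33 FPKM in DMSO treated cells. The groups did not overlap, and the mean was 51.3% higher with etoposide. The log2 difference was 0.58 (SE 0.10), and limma's adjusted p was 0.267. The corrected log2 difference was 0.47 (SE 0.088, limma's adjusted p = 0.126).

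The equal DMSO levels of MCM10 hide a difference between these libraries. A shorter transcript, ENST00000484800, took 49.6% of the FPKM of MCM10 in DMSO replicate 1 and 18.7% in DMSO replicate 2, and FPKM divides by transcript length. As estimated read pairs per 1000000 pairs of the implied depth, which do not divide by length, MCM10 stood at 21.4 and 20.3 in etoposide treated cells, against 12.3 and 14.2 in DMSO treated cells. The groups were apart on that scale too, with a log2 ratio of the means of 0.66.

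MCM3 (ENSG00000112118, chr6:52264014-52284881, minus strand), a ring subunit, had the next largest difference. Its level was 47.0 and 48.2 FPKM in etoposide treated cells, against 34.4 and 36.3 FPKM in DMSO treated cells. The gap between the groups exceeded the gap within either, and the mean was 34.8% higher with etoposide. The log2 difference was 0.43 (SE 0.074; limma's adjusted p = 0.267), and 0.40 after correction (SE 0.051; limma's adjusted p = 0.0781).

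Among the other ring subunits, MCM2 (ENSG00000073111, chr3:127598410-127622436, plus strand) had 65.2 and 64.5 FPKM in etoposide treated cells, against 54.8 and 55.9 FPKM in DMSO treated cells. MCM7 (ENSG00000166508, chr7:100092728-100101940, minus strand) had 79.5 and 77.5 FPKM in etoposide treated cells, against 71.2 and 66.0 FPKM in DMSO treated cells. MCM4 (ENSG00000104738, chr8:47960185-47978160, plus strand) had 45.4 and 45.0 FPKM in etoposide treated cells, against 39.0 and 42.1 FPKM in DMSO treated cells. In these 3 genes both etoposide libraries lay above both DMSO libraries, by less than in MCM3. The log2 difference was 0.23 for MCM2 (SE 0.068; limma's adjusted p = 0.350), 0.20 for MCM7 (SE 0.075; limma's adjusted p = 0.403) and 0.16 for MCM4 (SE 0.077; limma's adjusted p = 0.452). After correction it was 0.24 for MCM2, 0.21 for MCM7 and 0.077 for MCM4, and without DMSO replicate 1 that of MCM4 was 0.10 before correction.

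The remaining ring subunits overlapped between the groups. MCM6 (ENSG00000076003, chr2:135839626-135876443, minus strand) had 21.9 and 21.2 FPKM in etoposide treated cells, against 19.1 and 21.5 FPKM in DMSO treated cells. MCM5 (ENSG00000100297, chr22:35400134-35425431, plus strand) had 12.6 and 14.0 FPKM in etoposide treated cells, against 13.7 and 12.95 FPKM in DMSO treated cells. For both genes the replicates of at least one group differed by more than the group means. The log2 difference was 0.088 (SE 0.091) for MCM6 and −0.0083 (SE 0.095) for MCM5. After correction MCM6 turned to −0.038 (SE 0.050), and MCM5 was −0.0082 (SE 0.073). Without DMSO replicate 1 the uncorrected difference of MCM6 was 0.0034, and without DMSO replicate 2 it was 0.17.

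The recombination pair was lower in level and more variable. MCM8 (ENSG00000125885, chr20:5950652-5998977, plus strand) had 7.69 and 7.07 FPKM in etoposide treated cells, against 5.10 and 6.42 FPKM in DMSO treated cells. MCM9 (ENSG00000111877, chr6:118813442-118935162, minus strand) had 2.88 and 3.31 FPKM in etoposide treated cells, against 2.25 and 2.91 FPKM in DMSO treated cells. On the FPKM scale the groups did not overlap for MCM8 and overlapped for MCM9, and in both genes DMSO replicate 1 was the lowest library. As estimated read pairs per 1000000 pairs of the implied depth MCM9 was apart. It stood at 12.9 and 13.7 in etoposide libraries, against 9.14 and 12.6 in DMSO libraries. The log2 difference was 0.36 for MCM8 (SE 0.14; limma's adjusted p = 0.401) and 0.26 for MCM9 (SE 0.16; limma's adjusted p = 0.514). The corrected values were 0.16 for MCM8 and 0.14 for MCM9, and without DMSO replicate 1 the uncorrected ones were 0.20 and 0.084.

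**Figure D1:**
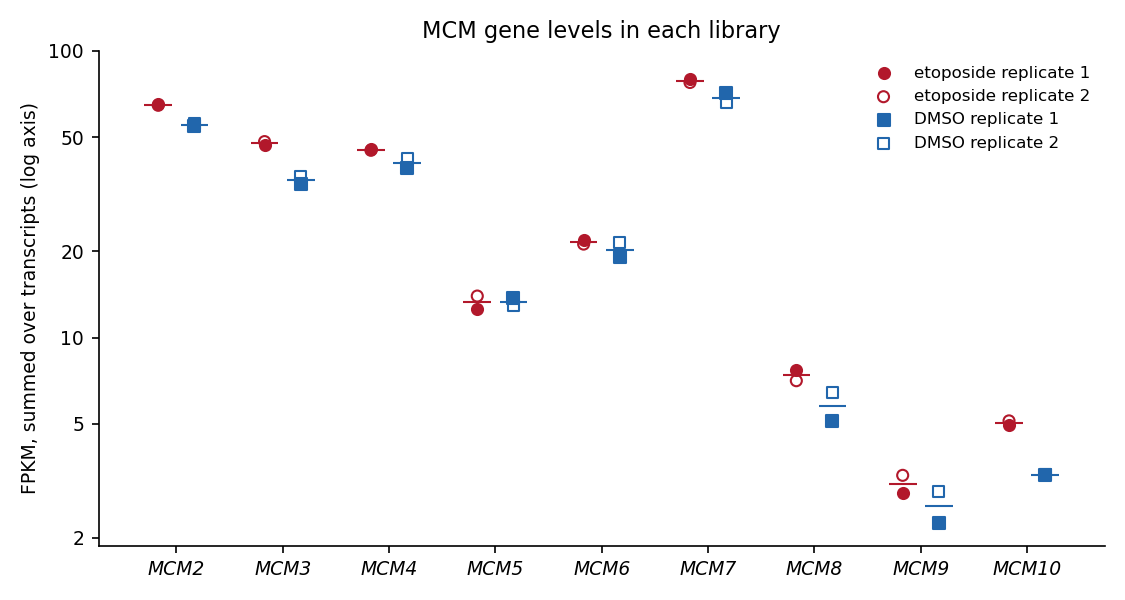
FPKM of each member (vertical log axis), summed over transcripts, in the etoposide libraries (circles) and the DMSO libraries (squares), with a line at each group's mean (n = 2 each). Etoposide lies above DMSO without overlap for MCM2, MCM3, MCM4, MCM7, MCM8 and MCM10, while the libraries of MCM5, MCM6 and MCM9 interleave.

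Over the 9 members, 8 had a positive log2 difference, or 7 after correction. Of the members, 6 had both etoposide libraries above both DMSO libraries, as did 28.9% of all genes tested. The number of members under an adjusted p of 0.05 was 0, as limma called 0% of all genes at that threshold. At an unadjusted p under 0.05, limma counted 5 members as higher (MCM2, MCM3, MCM7, MCM8 and MCM10), against 7.06% of all genes tested. After correction 4 members were counted (MCM2, MCM3, MCM7 and MCM10), against 6.78% of all genes. Across all genes the counts at that unadjusted threshold were 1566 higher and 1077 lower, and limma's voom on estimated fragments called 1 gene at an adjusted p under 0.05.

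The median log2 difference of the members was 0.23, beside 0.036 over all genes tested, of which 56.2% had a positive difference. After correction the medians were 0.16 for the members and −0.0043 for all genes. Calls depended on 1 library. Without DMSO replicate 2, which left DMSO replicate 1 as the lone control, limma's adjusted p was 0.0333 for MCM3, 0.0380 for MCM10, 0.0443 for MCM8 and 0.0485 for MCM2, and 1344 genes were called higher and 590 lower. With the correction and without that library, 0 genes were called and the adjusted p of MCM3 was 0.109.

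**Figure D2:**
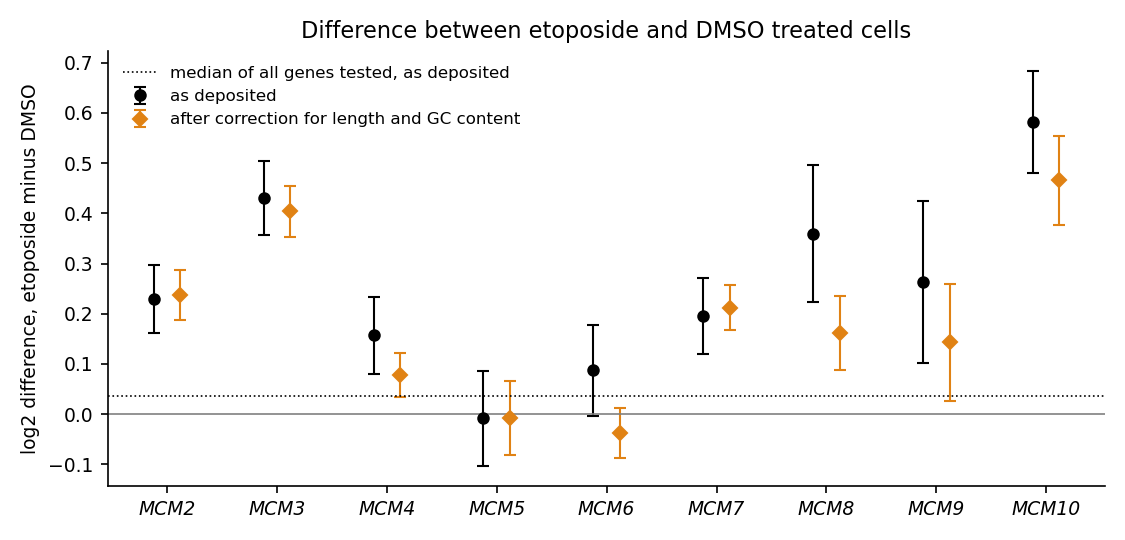
Log2 difference between etoposide and DMSO treated cells (vertical axis) for each member as deposited (black circles) and after correction for length and GC content (orange diamonds). Bars are standard errors from limma, and the dotted line is the median of all genes tested. MCM10 and MCM3 stand highest on both scales, and MCM5 and MCM6 lie at or near 0.

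Ratios within a library do not depend on the scaling between libraries. The order of levels was MCM7, MCM2, MCM3, MCM4, MCM6, MCM5, MCM8, MCM10 and MCM9 in etoposide treated cells. In DMSO treated cells MCM4 stood above MCM3, and the order was otherwise identical. Within a group, the levels of neighbours in that order did not overlap over the 2 libraries. The ratio of MCM3 to MCM4 was 1.04 and 1.07 in etoposide libraries, against 0.882 and 0.863 in DMSO libraries.

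The ring is built from equal numbers of its subunits, but the FPKM of their genes was not equal. The level of MCM7 was 6.34 and 5.56 times that of MCM5, the lowest ring subunit, in etoposide libraries, against 5.20 and 5.10 times in DMSO libraries. That of MCM3 was 3.75 and 3.46 times that of MCM5 in etoposide libraries, against 2.51 and 2.80 times in DMSO libraries. In both ratios the etoposide libraries lay above the DMSO libraries. Much of the FPKM of MCM7 was assigned to transcripts that are not annotated as coding. By the leading coding transcripts alone MCM7 was 2.87 and 2.27 times MCM5 in etoposide libraries, against 2.095 and 1.52 times in DMSO libraries. For the gene-level ratios the exact two-sided permutation p was 0.333 each, the smallest that 2 against 2 libraries can give.

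The summed FPKM of MCM2 to MCM7 was 272 and 270 in etoposide treated cells, against 232 and 235 in DMSO treated cells. Of that sum, MCM3 took 17.3% and 17.8% in etoposide libraries, against 14.8% and 15.5% in DMSO libraries. MCM5 took 4.62% and 5.16% in etoposide libraries, against 5.90% and 5.52% in DMSO libraries. MCM4 took 16.7% and 16.6% in etoposide libraries, against 16.8% and 17.9% in DMSO libraries. MCM3 thus held a larger share with etoposide, as did MCM2 by 0.242 percentage points on average, while MCM4, MCM5 and MCM6 held smaller shares, each without overlap. MCM6 took 8.05% and 7.83% in etoposide libraries, against 8.22% and 9.14% in DMSO libraries. The shares of MCM7 overlapped, at 29.3% and 28.7% in etoposide libraries, against 30.7% and 28.1% in DMSO libraries. The exact permutation p was 1 for MCM7 and 0.333 for each of the others.

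Relative to the ring, MCM10 was also higher with etoposide. Its log2 level minus the mean of MCM2 to MCM7 was −2.92 and −2.88 in etoposide libraries, against −3.29 and −3.32 in DMSO libraries. The difference of 0.40 had an exact permutation p of 0.333, the lower limit of the design. The same difference was 0.18 for MCM8 and 0.081 for MCM9, whose libraries overlapped between the groups (exact permutation p = 0.667 each). With the corrected levels it was 0.32 for MCM10, 0.014 for MCM8 and −0.0047 for MCM9.

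**Figure D3:**
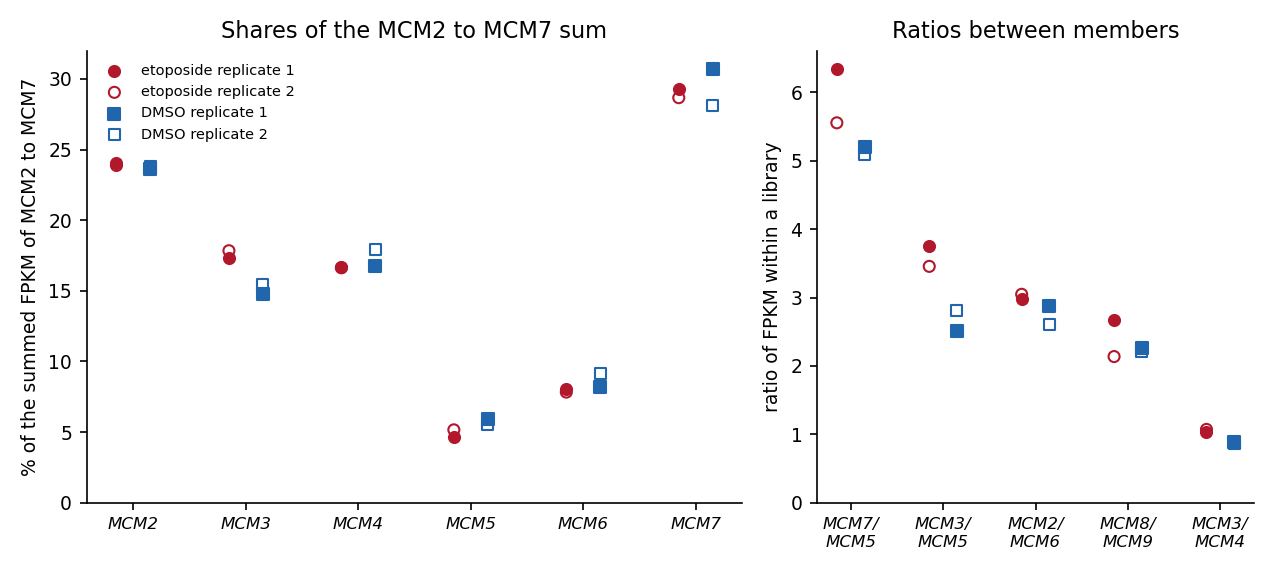
Left, the share of each ring subunit in the summed FPKM of MCM2 to MCM7 (%); right, ratios between members within a library; etoposide libraries are circles and DMSO libraries squares. The ratio of MCM3 to MCM4 passes 1 only in the etoposide libraries, and MCM8 to MCM9 overlaps between the groups.

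Coverage of single exons showed how evenly these differences ran along each gene. In the leading transcript of MCM10, each of the 20 exons was higher on average with etoposide, with log2 differences from 0.16 to 1.13, and in 19 exons both etoposide libraries exceeded both DMSO libraries. In MCM3 this held for 17 of 17 exons, within the narrow range of 0.33 to 0.53, and in MCM2 for 16 of 16 exons, from 0.14 to 0.30. MCM8 was higher in 19 of 19 exons, without overlap in 17 of them. These genes were therefore higher on average in every exon. The size was uneven in MCM8, from 0.24 in exon 7 to 0.70 in exon 11. Exons of other genes were not counted, so the exon counts here and below have no background beside them. They largely repeat the gene-level comparison, in which 28.9% of all genes tested had both etoposide libraries above both DMSO libraries.

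MCM7 was higher in 15 of 15 exons and MCM4 in 17 of 17, without overlap in 11 and 14 of them. MCM6 was higher in 15 of 17 exons, but without overlap in 4, and MCM5 in 7 of 17, without overlap in 2. MCM9 was higher in 10 of 14 exons, from −0.44 to 0.50, without overlap in 5. The DMSO libraries also differed along these genes. DMSO replicate 2 was above DMSO replicate 1 in 18 of 19 exons of MCM8, 15 of 20 of MCM10 and 13 of 14 of MCM9. The same held for 15 of 17 of MCM3, 14 of 17 each of MCM4 and MCM6 and 12 of 16 of MCM2. It held for 6 of 17 of MCM5 and 6 of 15 of MCM7. In MCM4 the median log2 gap between the DMSO libraries over exons was 0.24, against 0.17 for etoposide minus DMSO. That log2 gap changed with position in MCM6, from 0.59 in exon 1 to −0.30 in exon 17. In MCM8 it was 0.80 in exon 1 and −0.0051 in exon 19, but in MCM5 −0.15 in exon 1 and −0.10 in exon 17. At the same exons etoposide minus DMSO was 0.31 and −0.083 in MCM6, and 0.70 and 0.30 in MCM8. In MCM10 the gap between the DMSO libraries was 0.53 in exon 1 and −0.021 in exon 20, where etoposide minus DMSO was 0.88 and 0.45. The correction does not use position along a gene. Exons of a gene share its transcripts and reads and are not replicates.

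**Figure D4:**
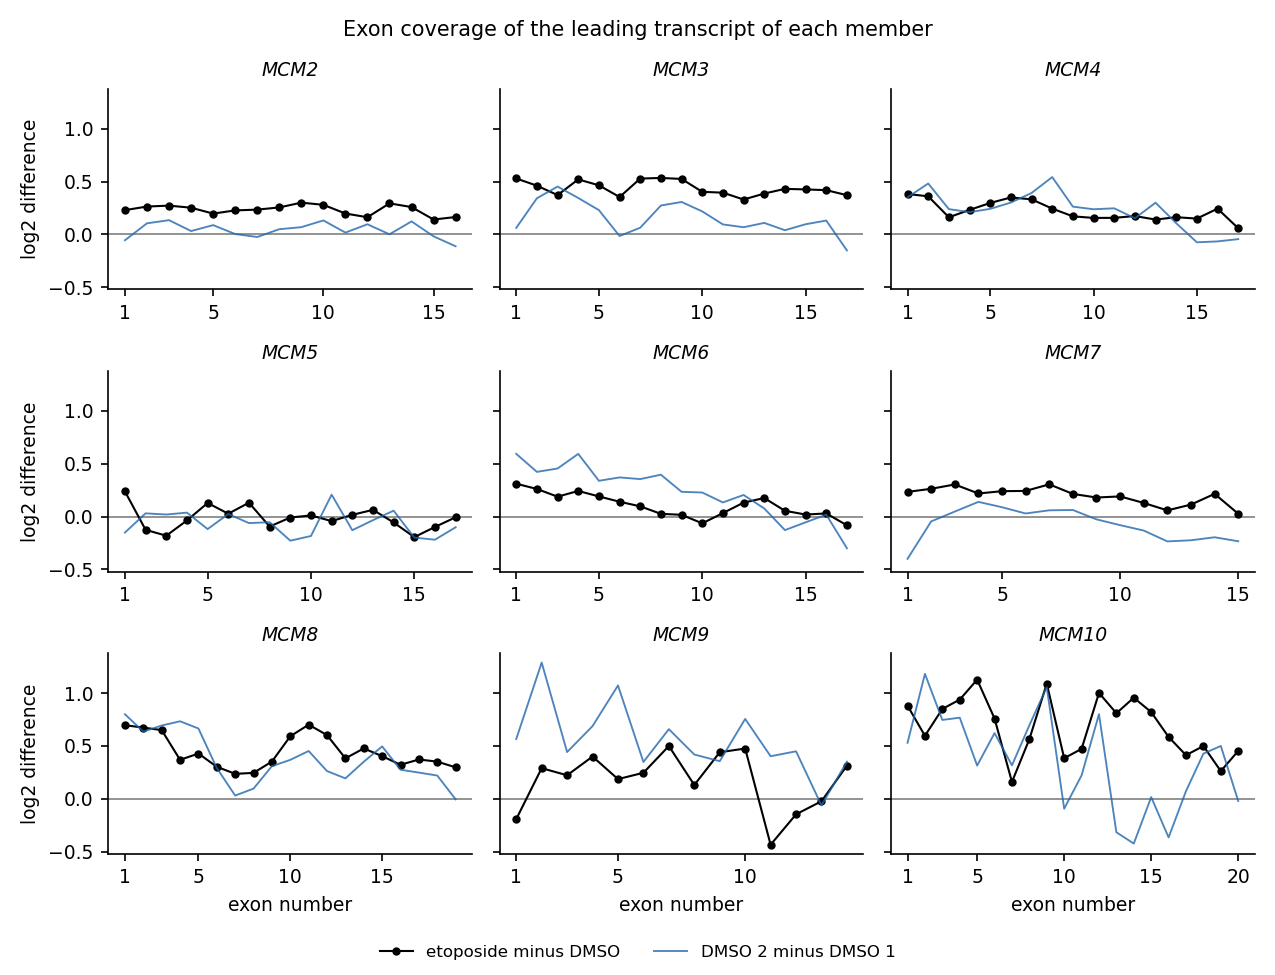
Log2 difference of coverage (vertical axis) for each exon of the leading transcript, numbered from the start of the gene, for etoposide minus DMSO (black, with points) and for DMSO replicate 2 minus replicate 1 (blue). The black line stays above 0 throughout in MCM2, MCM3, MCM4, MCM7, MCM8 and MCM10, and crosses it in MCM5, MCM6 and MCM9. The medians over exons are 0.38 (black) and 0.31 (blue) in MCM8 and 0.23 (black) and 0.45 (blue) in MCM9.

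The files hold 86 transcripts of the members, of which 41 passed the filter of a mean FPKM of 0.1. Of these, 0 had an adjusted p under 0.05, as limma called 0% of the 71340 transcripts tested. At an unadjusted p under 0.05 there were 5, of which 4 were higher and 1 lower, against 5.78% of all transcripts. MCM2, MCM4 and MCM6 were each dominated by 1 coding transcript, with 98.9%, 88.7% and 99.7% of the gene's FPKM. The coding transcript ENST00000265056 of MCM2, of 904 residues, stood at 64.3 and 64.0 FPKM in etoposide treated cells, against 54.2 and 55.2 FPKM in DMSO treated cells.

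ENST00000264156 of MCM6, of 821 residues, had 21.8 and 21.1 FPKM in etoposide treated cells, against 18.97 and 21.4 FPKM in DMSO treated cells. In MCM8, ENST00000610722, of 840 residues, held 73.7% of the gene, with 5.95 and 5.29 FPKM in etoposide treated cells, against 3.92 and 4.22 FPKM in DMSO treated cells. The groups overlapped for the MCM6 transcript and did not for that of MCM8, whose log2 difference was 0.45 (SE 0.17; limma's adjusted p = 0.848). In MCM5, the coding ENST00000216122, of 734 residues, had 10.6 and 12.4 FPKM in etoposide treated cells, against 12.1 and 11.5 FPKM in DMSO treated cells. The retained-intron ENST00000493076 of MCM5 had 1.73 and 1.30 FPKM in etoposide treated cells, against 1.38 and 1.28 FPKM in DMSO treated cells. Neither MCM5 transcript had a log2 difference above its SE.

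The lower transcript belonged to MCM7 and is annotated as retaining an intron. This transcript, ENST00000485286, had 8.74 and 11.97 FPKM in etoposide treated cells, against 17.2 and 20.5 FPKM in DMSO treated cells. Its log2 difference was −0.87 (SE 0.22), opposite to the gene's, with limma's adjusted p at 0.738. The leading coding transcript of MCM7, ENST00000303887, had 30.5 and 28.02 FPKM in etoposide treated cells, against 25.4 and 17.5 FPKM in DMSO treated cells.

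Transcripts annotated as coding took 38.6% and 36.3% of the FPKM of MCM7 in etoposide libraries, against 35.8% and 27.0% in DMSO libraries. Those with a retained intron took 50.0% and 49.5% in etoposide libraries, against 60.4% and 57.3% in DMSO libraries. The rest belonged to transcripts whose type is not in the GENCODE release used, chiefly ENST00000621318, with 8.64 and 10.7 FPKM in etoposide treated cells, against 2.43 and 10.02 FPKM in DMSO treated cells. The coding share would be larger if these were coding. These shares rest on how reads were divided among overlapping transcripts. That division varied between the DMSO replicates, as the values of ENST00000621318 and ENST00000303887 show. By its leading coding transcript alone MCM7 stood below MCM4. The leading transcript of MCM4, ENST00000649973, had 42.7 and 40.1 FPKM in etoposide treated cells, against 31.0 and 38.1 FPKM in DMSO treated cells. Another retained-intron transcript of MCM7, ENST00000489841, had 28.8 and 25.2 FPKM in etoposide treated cells, against 24.2 and 15.8 FPKM in DMSO treated cells.

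In MCM3 and MCM10 the split between similar transcripts varied between replicates. The leading MCM3 transcript, ENST00000596288, of 808 residues, had 34.4 and 44.9 FPKM in etoposide treated cells, against 28.04 and 23.0 FPKM in DMSO treated cells. The longer ENST00000616552, of 853 residues, had 10.7 and 2.03 FPKM in etoposide treated cells, against 3.33 and 11.2 FPKM in DMSO treated cells. What one transcript lost between replicates the other largely gained, so that the gene sum was steadier than its parts.

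MCM10 showed a like exchange between transcripts of 874 and 875 residues. ENST00000378714 had 4.30 and 2.99 FPKM in etoposide treated cells, against 1.25 and 2.58 FPKM in DMSO treated cells. ENST00000484800 had 0.425 and 1.62 FPKM in etoposide treated cells, against 1.65 and 0.622 FPKM in DMSO treated cells. In DMSO replicate 1 the second of them was the more abundant, and in the other libraries the first was.

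MCM9 encodes long and short proteins. Its leading transcript for the long protein of 1143 residues, ENST00000619706, had 1.73 and 1.69 FPKM in etoposide treated cells, against 0.722 and 1.11 FPKM in DMSO treated cells. ENST00000316316, which encodes a protein of equal length, had 0.418 and 0.533 FPKM in etoposide treated cells, against 0.774 and 0.967 FPKM in DMSO treated cells. Both were apart between the groups but in opposite directions, with limma's adjusted p at 0.848 for each. Their shares of the FPKM of MCM9 were apart too. ENST00000619706 took 60.2% and 51.0% in etoposide libraries, against 31.9% and 38.1% in DMSO libraries. ENST00000316316 took 14.5% and 16.1% in etoposide libraries, against 34.4% and 33.3% in DMSO libraries. The transcript for the short protein of 391 residues, ENST00000316068, overlapped between the groups, with 0.328 and 0.623 FPKM in etoposide treated cells, against 0.495 and 0.618 FPKM in DMSO treated cells.

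Several members lie next to or across other genes. PRKDC, the catalytic kinase of non-homologous end joining, starts on the opposite strand to MCM4, 763 bases from the start of its leading transcript and 7 bases from that of an annotated transcript listed at 0 in every library. PRKDC had 44.6 and 44.8 FPKM in etoposide treated cells, against 23.5 and 39.6 FPKM in DMSO treated cells. The groups did not overlap, DMSO replicate 1 lay far below the other libraries, and the log2 difference was 0.55, or 0.34 after correction (limma's adjusted p = 0.423 before it).

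TRMT6, a subunit of a tRNA methyltransferase, starts 94 bases from MCM8 and had 16.1 and 15.4 FPKM in etoposide treated cells, against 13.5 and 12.95 FPKM in DMSO treated cells (log2 difference 0.25, or 0.16 after correction; limma's adjusted p = 0.379). TPRA1, 143 bases from MCM2, had 8.33 and 9.59 FPKM in etoposide treated cells, against 13.3 and 9.58 FPKM in DMSO treated cells. The partner of MCM8 was thus higher without overlap, and that of MCM2 had a log2 difference of −0.33 (−0.29 after correction) with etoposide replicate 2 level with DMSO replicate 2. Reads were assigned without a strand option, so unspliced reads cannot be told apart where genes overlap on opposite strands. Such pairs are MCM7 and AP4M1, MCM9 and ASF1A, and MCM2 and the noncoding ENSG00000285600. The leading transcript of MCM7 starts 152 bases from AP4M1 and does not overlap it. AP4M1 had 4.998 and 5.21 FPKM in etoposide treated cells, against 5.19 and 4.75 FPKM in DMSO treated cells. ASF1A had 8.31 and 8.51 FPKM in etoposide treated cells, against 9.26 and 9.20 FPKM in DMSO treated cells. The noncoding ENSG00000253194, which also overlaps MCM9, had 0.175 and 0.143 FPKM in etoposide treated cells, against 0.227 and 0.185 FPKM in DMSO treated cells. At MCM8, the antisense MCM8-AS1 was under 0.1 FPKM in every library, and Y_RNA, ENSG00000231961 and ENSG00000286235 were listed at 0.

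Promoters of 7 members were matched in the RefSeq table of build GRCh38.p14, which holds 250 bases before to 50 bases after each start. They were searched on both strands for the E2F-type letters TTTCCCGC, TTTGGCGC, TTTGCCGC and TTTCGCGC, for CCAAT, for the GC box GGGCGG and for the cell cycle element TTTGAA. The E2F-type letters were present in 5 of the 7 members (MCM2, MCM3, MCM6, MCM7 and MCM8), beside 3.99% of the 27305 genes with a promoter in the table. MCM7 has 3 promoters there, of which 1 holds such letters. CCAAT was present in 6 of 7, all but MCM2, beside 39.7% of genes, and the GC box in 6 of 7, all but MCM3, beside 48.3%. TTTGAA was in 0 of 7, beside 18.2%. A match describes the letters only, not a binding site.

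The promoters of 4 members are shown because MCM10 and MCM3 differed most between the groups and because MCM2 and MCM6 both hold overlapping pairs of E2F-type letters. Each runs 5′ to 3′ on the gene's strand, with E2F-type letters and CCAAT in capitals on either strand (ATTGG being CCAAT on the other strand). MCM10 lies at chr10:13161308-13161607 on the plus strand, MCM3 at chr6:52284693-52284992 on the minus strand, MCM2 at chr3:127598161-127598460 on the plus strand and MCM6 at chr2:135876394-135876693 on the minus strand.
MCM10: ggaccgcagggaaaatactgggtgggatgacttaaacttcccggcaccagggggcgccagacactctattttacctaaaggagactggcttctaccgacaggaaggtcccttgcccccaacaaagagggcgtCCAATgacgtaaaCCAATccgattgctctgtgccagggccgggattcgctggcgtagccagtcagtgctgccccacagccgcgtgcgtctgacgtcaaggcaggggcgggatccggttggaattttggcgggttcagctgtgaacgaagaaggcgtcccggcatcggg
MCM3: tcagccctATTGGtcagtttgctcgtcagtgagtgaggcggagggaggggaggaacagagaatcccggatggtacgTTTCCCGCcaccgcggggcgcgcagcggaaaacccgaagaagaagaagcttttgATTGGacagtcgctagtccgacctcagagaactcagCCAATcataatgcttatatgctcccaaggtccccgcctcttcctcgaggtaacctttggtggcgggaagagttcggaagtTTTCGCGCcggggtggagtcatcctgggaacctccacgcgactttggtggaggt
MCM2: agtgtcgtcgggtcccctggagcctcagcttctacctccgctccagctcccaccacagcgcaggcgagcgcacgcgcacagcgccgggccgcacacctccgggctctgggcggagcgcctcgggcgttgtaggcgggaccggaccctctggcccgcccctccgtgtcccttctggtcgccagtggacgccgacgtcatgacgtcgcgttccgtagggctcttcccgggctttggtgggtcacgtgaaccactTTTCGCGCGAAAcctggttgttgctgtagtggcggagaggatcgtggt
MCM6: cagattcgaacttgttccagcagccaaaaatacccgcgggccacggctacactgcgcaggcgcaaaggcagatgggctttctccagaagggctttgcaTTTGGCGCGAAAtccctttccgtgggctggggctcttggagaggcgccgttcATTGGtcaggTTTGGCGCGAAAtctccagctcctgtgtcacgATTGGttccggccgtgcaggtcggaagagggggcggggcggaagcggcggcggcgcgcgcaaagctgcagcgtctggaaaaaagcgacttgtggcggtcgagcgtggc

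MCM10 has none of the E2F-type letters that were searched for in this window, and 2 copies of CCAAT, 118 and 105 bases before the start. Its sequence does hold TTTGGCGG, which is close to TTTGGCGC but was not among the letters searched. MCM3 has TTTCCCGC 174 bases and TTTCGCGC 4 bases before the start, and 3 copies of CCAAT. In MCM2, TTTCGCGC begins 2 bases after the start on the gene's strand and again 6 bases after it on the other strand, so that both matches overlap. MCM6 has the most E2F-type matches, 4 in 2 overlapping pairs at 152 and 148 and at 90 and 86 bases before the start. The relation of these letters to the differences between the groups was not tested.

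The differences of the members stood beside those of other replication genes, from lists chosen with earlier results of these data known. Of all 22185 genes tested, 12458 had a positive log2 difference. At an unadjusted p under 0.05 limma counted 1566 genes as higher and 1077 as lower. Of the partners of the active helicase and the factors that activate it, 14 of 14 had a positive log2 difference. Their median was 0.34 (0.30 after correction), and 10 had an unadjusted p under 0.05 by limma. TIMELESS, which ties the helicase to the polymerases, had 24.2 and 23.5 FPKM in etoposide treated cells, against 16.7 and 18.3 FPKM in DMSO treated cells. The checkpoint mediator CLSPN had 9.54 and 8.48 FPKM in etoposide treated cells, against 5.12 and 6.47 FPKM in DMSO treated cells, and WDHD1, which links the CMG helicase to polymerase alpha, had 14.1 and 14.3 FPKM in etoposide treated cells, against 8.28 and 10.6 FPKM in DMSO treated cells. Both groups were apart in each of these genes, and 0 genes of the list had an adjusted p under 0.05.

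Of 13 genes of origin licensing and its kinases, 9 had a positive log2 difference, 8 of them with an unadjusted p under 0.05 by limma, and the median was 0.27 (0.22 after correction). CDT1, a loader of the ring, had 7.35 and 7.27 FPKM in etoposide treated cells, against 4.93 and 4.75 FPKM in DMSO treated cells. CDC6, the other loader, had 10.8 and 10.7 FPKM in etoposide treated cells, against 6.66 and 7.47 FPKM in DMSO treated cells. ORC1, the largest subunit of the origin recognition complex, had 8.82 and 8.56 FPKM in etoposide treated cells, against 6.21 and 6.60 FPKM in DMSO treated cells. The log2 differences of CDT1 and CDC6, 0.59 and 0.60 (0.65 and 0.48 after correction), were near that of MCM10, with limma's adjusted p at 0.267 for each.

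Genes of helicase unloading stood near all genes, with 5 of 9 positive, 0 at an unadjusted p under 0.05 by limma and a median of 0.015 (−0.053 after correction). The elongin subunit ELOC had 41.1 and 40.8 FPKM in etoposide treated cells, against 36.5 and 36.3 FPKM in DMSO treated cells. Of the partners of MCM8 and MCM9, HROB, which recruits them, had 3.76 and 3.89 FPKM in etoposide treated cells, against 3.52 and 2.96 FPKM in DMSO treated cells. It was higher without overlap, by 0.24 on the log2 scale (0.26 after correction), with limma's adjusted p at 0.475. MCMDC2, a relative of the MCM genes active in meiosis, was at 0.025 and 0.036 FPKM in etoposide treated cells, against 0.043 and 0.025 FPKM in DMSO treated cells, under the filter. Of 18 E2F and DREAM regulators, 15 had a positive difference (6 higher and 1 lower at an unadjusted p under 0.05 by limma), with a median of 0.24, or 0.12 after correction. The DREAM subunit LIN54 had 6.33 and 8.005 FPKM in etoposide treated cells, against 4.37 and 5.13 FPKM in DMSO treated cells, and the retinoblastoma relative RBL1 had 5.90 and 6.23 FPKM in etoposide treated cells, against 3.49 and 4.66 FPKM in DMSO treated cells.

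**Figure D5:**
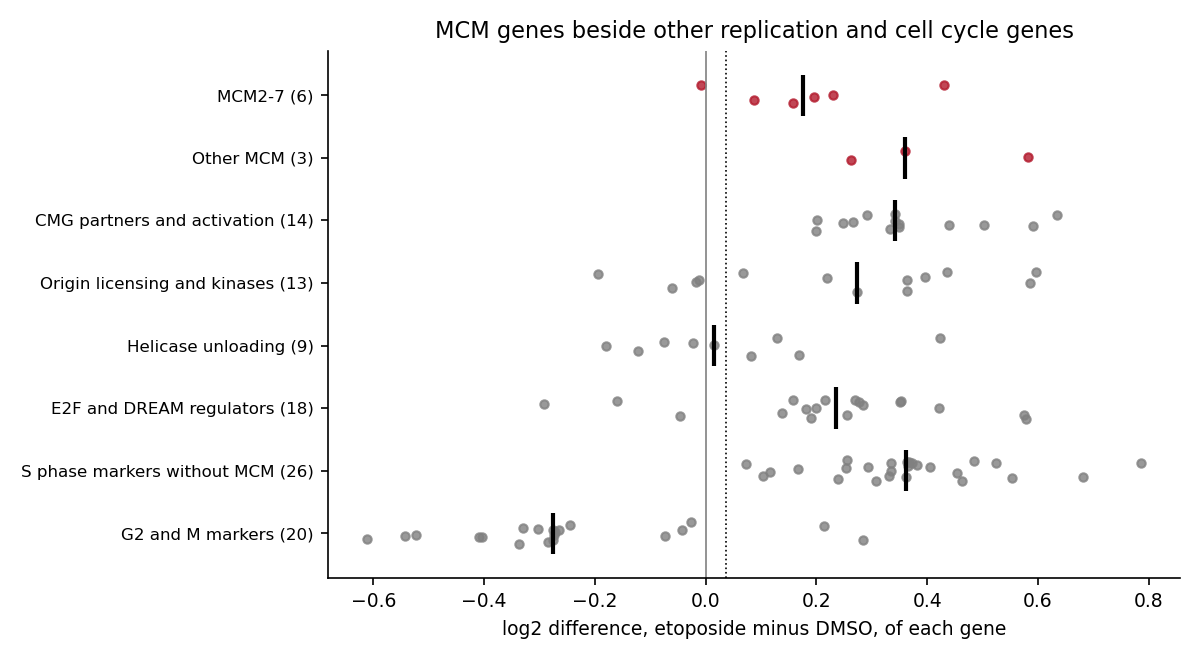
Log2 difference between etoposide and DMSO treated cells (horizontal axis) of each gene tested in 8 groups, with the number of genes in brackets, a thick bar at the group's median and a dotted line at the median of all genes tested. MCM genes are red. Ring subunits have a median of 0.18, below those of their partners and activators (0.34) and S phase markers (0.36), while G2 and M markers lie mostly below 0.

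Markers of cell cycle phase were set beside the members. Of all 22185 genes tested, limma counted 1566 as higher and 1077 as lower at an unadjusted p under 0.05. Of 26 S phase markers other than MCM genes, 26 had a positive log2 difference, 21 with an unadjusted p under 0.05 by limma, with a median of 0.36 (0.26 after correction) and a summed level of 722 to 723 FPKM in etoposide libraries, against 550 to 602 FPKM in DMSO libraries. PCNA, the polymerase clamp, had 56.8 and 55.9 FPKM in etoposide treated cells, against 43.6 and 43.8 FPKM in DMSO treated cells. Of 20 G2 and M markers, 18 had a negative difference. At an unadjusted p under 0.05 limma counted 13 as lower and 1, the kinase CDK1, as higher, with a median of −0.28 (−0.35 after correction) and a summed level of 721 to 723 FPKM in etoposide libraries, against 881 to 903 FPKM in DMSO libraries. The mitotic kinase AURKA had 43.8 and 42.5 FPKM in etoposide treated cells, against 63.2 and 60.8 FPKM in DMSO treated cells. The part of cell cycle phase in the differences of the MCM genes was not tested, and in bulk RNA more cells in a phase and more RNA per cell cannot be told apart.

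Markers of OVCAR3 and serous carcinoma were expressed in every library. Their summed level was 2093 and 2162 FPKM in etoposide treated cells, against 3008 and 2664 FPKM in DMSO treated cells. Most of that sum came from the keratin genes KRT8 and KRT18. Of the list, 7 of 9 had a negative difference, beside 9727 of all 22185 genes tested. At an unadjusted p under 0.05 limma counted 6 as lower and 1 as higher, beside 1077 lower and 1566 higher among all genes. Of the fibroblast list 3 of 6 genes, of the leukocyte list 3 of 5 and of the endothelial list 2 of 4 were under 0.1 FPKM in every library, and the leukocyte marker MS4A1 was listed at 0. The summed level was 8.02 to 8.20 FPKM in etoposide libraries, against 6.83 to 6.90 FPKM in DMSO libraries for fibroblast markers. COL1A1, a collagen chain, led this list without overlap between the groups, with 6.11 and 5.80 FPKM in etoposide treated cells, against 4.36 and 4.42 FPKM in DMSO treated cells (log2 difference 0.43; limma's adjusted p = 0.302). It was the only tested gene of the list that was higher. The other 2 tested genes were lower, also without overlap, and the median log2 difference of the list was −0.17. The endothelial receptor KDR, with 4.14 and 4.20 FPKM in etoposide treated cells, against 3.77 and 5.01 FPKM in DMSO treated cells, overlapped between the groups. COL1A1 and KDR stood at levels like those of MCM10. The summed level was 0.796 to 0.880 FPKM in etoposide libraries, against 0.949 to 1.21 FPKM in DMSO libraries for leukocyte markers, and 5.06 to 5.16 FPKM in etoposide libraries, against 4.41 to 5.61 FPKM in DMSO libraries for endothelial markers. Their part in the differences of the MCM genes was not tested.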

How the data were processed

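The mRNA libraries of OVCAR3 cells were stranded and sequenced from both ends (100 bases each). Per the labels and the study's methods, the authors aligned reads to GRCh38 with HISAT2 and ran StringTie 2.1.7 on annotated transcripts, with no strand option. The deposited files give a coverage, an FPKM and a TPM for 236853 transcripts; these are other values than counts, and no count test was run. The sequencing methods of the study mention transfection and a mutant, unlike the labels. Groups were taken from the labels.

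FPKM were summed per gene. Genes averaging at least 0.1 FPKM (22185) were compared on log2(FPKM + 0.1) with limma 3.58.1 in R 4.3.3 (trend, robust, Benjamini-Hochberg). The correction was a loess fit (span 0.3) on transcript length and GC content. Transcripts were tested likewise. Read pairs were estimated as coverage times length over 200 bases, and depth from the ratio of coverage to FPKM. They are estimates, and no counting interval was made. Exon levels are coverage summed over transcripts that share the bases. Types came from GENCODE release 44. Python 3.11.15, pandas 2.3.3, scipy 1.17.1 and matplotlib 3.10.9 were used, and the fit was tested on simulated data.

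Named were all members, their transcripts with at least 10% of the gene, genes of each list among the 3 with the smallest p, genes overlapping a member or starting within 1000 bases on the other strand, and the 5 genes most like the ring subunits. CDK1 and MS4A1 were named after their values were seen. One gene of the lists is not reported here. Members and lists were chosen with earlier results of these data known. Alternatives were other pseudocounts, filters, scalings, TPM, voom, protein-coding genes alone, the correction, a replicate block and leaving out each library. Same-numbered libraries did not deviate together (correlation 0.0133), so they were not paired. Proteins were not analysed here.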

Additional observations from a re-analysis of the deposited data

How the results depend on the processing

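Under 22 alternatives, 187 of 198 member values kept their side of zero, and the 11 that reversed were those of MCM5 and MCM6. MCM5 turned to 0.059 with TPM, 0.031 without DMSO replicate 1, 0.067 without etoposide replicate 1, and, with the correction, to 0.010 without DMSO replicate 1 and 0.075 without etoposide replicate 1. MCM6 turned to −0.038 with the correction, with or without the block, and to −0.041 and −0.034 without DMSO replicates 1 and 2 and −0.061 and −0.015 without etoposide replicates 1 and 2. Leaving out a library alone gave −0.084 to 0.067 for MCM5. The fits that joined the correction with leaving out a library were chosen after seeing the data. The median of the members was 0.30 with TPM, 0.16 with equal median scaling or the correction, 0.20 to 0.24 when a library was left out and 0.15 to 0.22 when one was left out with the correction. Genes past the threshold, 0 in either direction, became 1 higher with voom and 6 lower with the correction. They were 3 to 1344 higher and 2 to 590 lower when a library was left out, and 0 to 3 higher and 0 to 5 lower with the correction too. Only without DMSO replicate 2 were members called, by limma: MCM2 at 0.24, MCM3 at 0.47, MCM8 at 0.52 and MCM10 at 0.58. Leaving a group with 1 library assumes that it varies like the other group.

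With the replicate block, 0 genes were past the threshold and the median of the members was 0.23, so it changed no call. It was not used, because the numbers do not pair the libraries. The median of the 9 leading transcripts, 0.45, was 0.38 with a pseudocount of 1, 0.53 with TPM and 0.37 to 0.44 when a library was left out. List medians moved with the correction to 0.16 (MCM8 to MCM10), 0.12 (E2F and DREAM), 0.26 (S phase), −0.35 (G2 and M) and −0.053 (unloading, reversed). With TPM they moved to 0.24 (MCM2 to MCM7), 0.082 (unloading) and −0.21 (G2 and M). When a library was left out they ranged from 0.20 to 0.52 (MCM8 to MCM10), 0.19 to 0.35 (licensing), −0.051 to 0.049 (unloading, reversed without etoposide replicate 2), 0.14 to 0.32 (E2F and DREAM) and −0.35 to −0.25 (G2 and M).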

Other observations

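The profile of the ring subunits over the 4 libraries was compared with that of 11492 protein-coding genes at a mean FPKM of at least 1, by the root mean square difference of centred log2 values from the mean of MCM2 to MCM7. The 5 closest were C5orf15 (0.0044), BCAS2, a splicing factor (0.0053), EIF4A2, a translation initiation factor (0.0058), LRRC57 (0.0068) and ZDHHC6 (0.0071). EIF4A2 had 186 and 186 FPKM in etoposide treated cells, against 161 and 166 FPKM in DMSO treated cells. Since 815 genes lay within 0.05 and the median gene lay at 0.13, likeness over 4 libraries is common and singles out no gene. The ring subunits themselves were less alike, at 0.026 for MCM2, 0.032 for MCM4, 0.054 for MCM7, 0.070 for MCM6, 0.11 for MCM5 and 0.13 for MCM3. MCM10 lay at 0.20.

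The microRNA genes MIR25, MIR93 and MIR106B lie within MCM7. MIR25 was at 1.504 and 1.34 FPKM in etoposide treated cells, against 1.35 and 0.987 FPKM in DMSO treated cells. MIR93 and MIR106B were under 1 FPKM in every library and overlapped between the groups. Values of genes this short in libraries of mRNA are not a measure of the mature microRNA.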
